A study of Mus musculus with 15 samples.

Results

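Toll-like receptors (TLRs) are the membrane sensors through which innate immune cells recognise microbial products and molecules released by damaged tissue. Of 10 receptor genes sought by symbol among the 22008 genes named in the array table, 9 were found (Tlr1, Tlr2, Tlr3, Tlr4, Tlr6, Tlr7, Tlr8, Tlr9 and Tlr13), and they occupied 10 of its 35556 transcript clusters because Tlr4 had 2. Tlr5 was not analysed here. Their signal was followed in 15 whole primary mammary tumours of 5 types, with 3 tumours from separate mice per type and 1 array per tumour. 67NR (non-metastatic), 4T1.2 (metastatic) and EMT6.5 (metastatic) tumours grew in Balb/c mice, and EO771 (non-metastatic) and EO771.LMB (metastatic) tumours in C57Bl/6 mice. All mice were female, 6 to 8 weeks old per the labels (the study's methods give an older range), and carried the tumour in the inguinal mammary fat pad. 67NR and 4T1.2 descend from 1 mouse mammary tumour, 4T1.2 and EMT6.5 are clonal lines, and EO771.LMB was recovered from a lung nodule of mice bearing mCherry-labelled EO771 cells, so each type stands for 1 line. The host strain and the tumour line therefore cannot be told apart, and in whole tumours fewer cells of a type cannot be told apart from less RNA per cell.

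Each TLR has an ectodomain of leucine-rich repeats that binds ligand and a cytoplasmic TIR domain that recruits adaptor proteins. At the cell surface, Tlr2 pairs with Tlr1 or Tlr6 to bind bacterial lipopeptides, and Tlr4, with its partner Ly96 (MD-2) and Cd14, senses lipopolysaccharide as well as host proteins such as the S100a8/S100a9 complex. Inside endosomes, Tlr3 binds double-stranded RNA, Tlr7 and Tlr8 belong to a subfamily that senses single-stranded RNA and its breakdown products, Tlr9 binds CpG DNA, and the mouse receptor Tlr13 binds bacterial ribosomal RNA. All but Tlr3 signal through the adaptor Myd88 to NF-κB, and macrophages and dendritic cells are among the cells best known to carry them.

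RefSeq promoter windows on GRCm38.p6, which run from 250 bases before to 50 bases after a gene's start, matched 7 of the 9 genes with 9 windows. No window was matched for Tlr4 and Tlr7. Tlr1 and Tlr6 lie next to each other on chromosome 5, and Tlr8 and Tlr7 are neighbours on chromosome X. The windows of Tlr2 and Tlr13 are shown because these genes separated the tumours of the 2 strains without overlap, that of Tlr8 because it had the widest span of levels over the 5 types, and that of Tlr9 because it was lower in the BALB/c tumours. Capitals mark, on either strand, the core GAGGAA of the myeloid factor PU.1, the NF-κB motif, the AP-1 motif TGANTCA and the interferon-stimulated response element. The sequences read 5′ to 3′ on the strand of the gene.
Tlr2: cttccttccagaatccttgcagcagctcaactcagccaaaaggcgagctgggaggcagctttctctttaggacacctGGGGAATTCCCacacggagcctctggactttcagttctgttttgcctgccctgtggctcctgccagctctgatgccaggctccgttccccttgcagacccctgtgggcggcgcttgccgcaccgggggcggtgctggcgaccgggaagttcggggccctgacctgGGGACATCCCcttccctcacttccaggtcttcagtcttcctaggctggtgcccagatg
Tlr13: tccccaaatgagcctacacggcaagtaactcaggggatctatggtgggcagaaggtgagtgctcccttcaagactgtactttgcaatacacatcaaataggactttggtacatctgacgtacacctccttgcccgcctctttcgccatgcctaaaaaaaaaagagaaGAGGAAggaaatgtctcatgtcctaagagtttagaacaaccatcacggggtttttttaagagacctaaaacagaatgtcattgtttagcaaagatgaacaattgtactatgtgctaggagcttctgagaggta
Tlr8: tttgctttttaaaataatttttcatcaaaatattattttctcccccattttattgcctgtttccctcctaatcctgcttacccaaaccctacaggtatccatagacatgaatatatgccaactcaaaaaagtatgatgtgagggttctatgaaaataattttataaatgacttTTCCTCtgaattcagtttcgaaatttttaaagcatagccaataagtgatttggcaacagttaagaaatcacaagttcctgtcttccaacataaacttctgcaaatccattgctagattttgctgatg
Tlr9: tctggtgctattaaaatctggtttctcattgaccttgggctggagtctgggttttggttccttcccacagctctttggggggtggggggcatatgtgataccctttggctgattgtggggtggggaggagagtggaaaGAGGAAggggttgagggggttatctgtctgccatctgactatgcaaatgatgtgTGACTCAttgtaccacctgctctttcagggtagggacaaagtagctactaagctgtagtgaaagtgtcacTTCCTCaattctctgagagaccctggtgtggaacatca

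The Tlr2 window lies at chr3:83841559-83841858 (minus strand), that of Tlr13 at chrX:106143025-106143324 (plus strand), that of Tlr8 at chrX:167264280-167264579 (minus strand) and that of Tlr9 at chr9:106222348-106222647 (plus strand). Tlr1 and Tlr6 have 2 windows each, so the counts below are per gene while the shares are per window. The GAGGAA core occurred in the windows of 4 member genes (Tlr1, in 1 of its 2 windows, Tlr8, Tlr9 and Tlr13). It occurred in 28.3% of all 32851 windows of this length. The NF-κB motif occurred in those of 2 genes (Tlr2 and Tlr3) and in 8.46% of all windows. In Tlr2 it matched 3 times over the 2 stretches in capitals, since matches may overlap. The AP-1 motif was found for 1 gene (Tlr9), beside 7.81% of all windows. The interferon-stimulated element was found for 1 gene (Tlr6, in 1 of its 2 windows), beside 3.44% of all windows. The windows of Tlr13 and Tlr8, both lower in the C57BL/6 tumours, and of Tlr9, which was not, all held the GAGGAA core. These matches are a description of the letters only.

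All values below are log2 signals as deposited, and because probes differ in brightness, levels are compared between tumours and not between genes. Signals of all clusters ran from 3.26 to 13.98, array medians from 6.32 to 6.44, and arrays of 1 type correlated at 0.983 to 0.989, with no array standing apart. Each comparison was fitted in limma over all clusters, a call being a Benjamini-Hochberg adjusted p under 0.05. By limma's moderated F test across the 5 types, 9 of the 9 receptors were called, against 43.1% of all clusters. The order 67NR, 4T1.2, EMT6.5, EO771, EO771.LMB from high to low held for the type means of Tlr1, Tlr2, Tlr6, Tlr8 and Tlr13. Tlr7 differed from it only in that EO771 stood above EMT6.5, whereas Tlr3, Tlr4 and Tlr9 followed other orders.

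**Figure D1:**
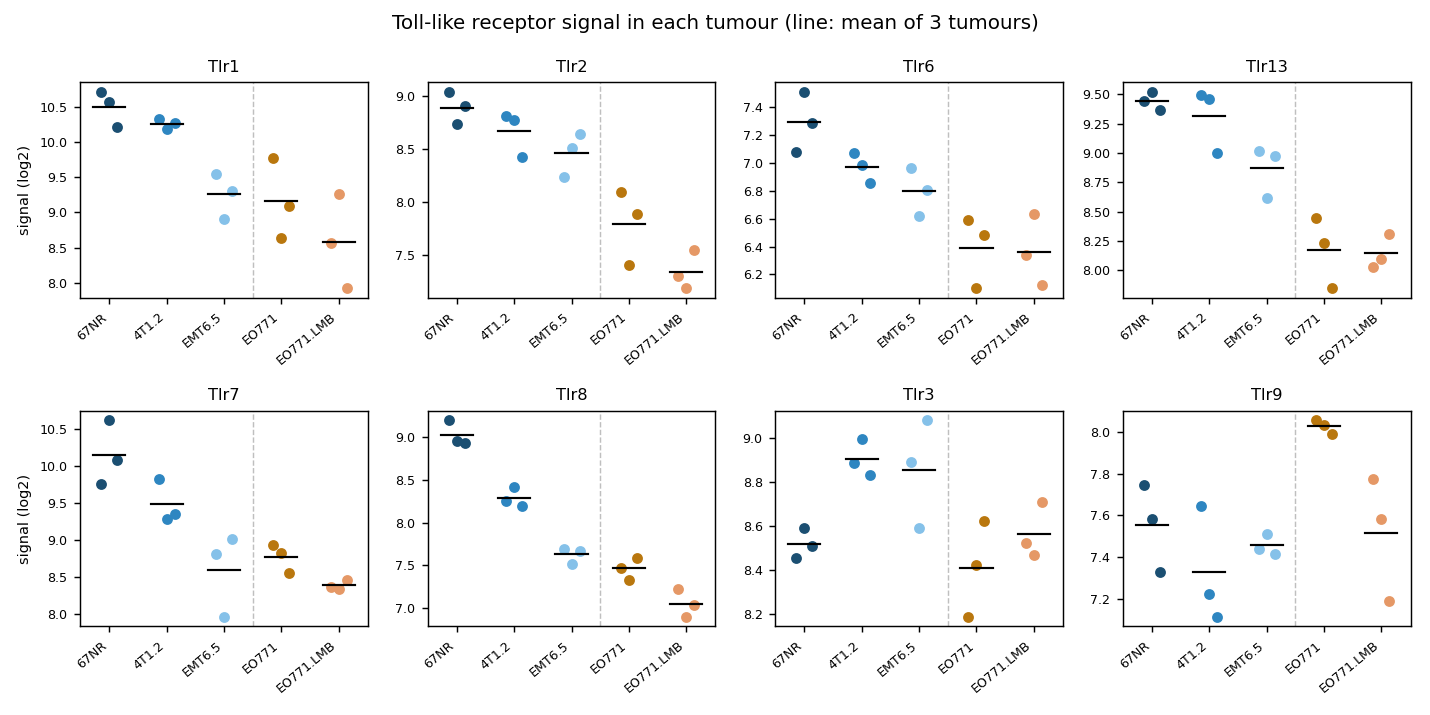
Log2 signal of 8 receptors in each of the 15 tumours, by tumour type, with a dot per tumour and a line at the mean of the 3 tumours of a type; the dashed line separates Balb/c from C57Bl/6 hosts and each panel has its own vertical scale. Tlr2 and Tlr13 sat higher in every BALB/c tumour than in any C57BL/6 tumour, and Tlr9 was highest in EO771.

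The lipopeptide receptors were higher in the BALB/c tumours. Tlr2, the shared chain of the lipopeptide heterodimers, ran from 8.23 to 9.04 (median 8.73) over the 9 BALB/c tumours and from 7.18 to 8.09 (median 7.47) over the 6 C57BL/6 tumours. No BALB/c tumour reached down to the highest C57BL/6 tumour. Its mean difference, the average of the 3 BALB/c types minus that of the 2 C57BL/6 types, was 1.11 ± 0.11 (SE) on the log2 scale, or 2.15-fold (limma adjusted p = 1.99e-06). Tlr1, which pairs with Tlr2 for triacylated lipopeptides, read 10.71, 10.57 and 10.21 for 67NR, 10.32, 10.19 and 10.27 for 4T1.2, 9.55, 8.91 and 9.31 for EMT6.5, 9.77, 8.63 and 9.08 for EO771, and 8.56, 9.26 and 7.92 for EO771.LMB. The 67NR and 4T1.2 tumours lay above all others, while EMT6.5 overlapped both C57BL/6 types. The strain difference for Tlr1 was 1.13 ± 0.20, or 2.19-fold (adjusted p = 0.000362). Tlr6, the partner for diacylated lipopeptides, ran from 6.62 to 7.51 in BALB/c and from 6.10 to 6.63 in C57BL/6 tumours, which touched at the margin, and differed by 0.64 ± 0.10, or 1.56-fold (adjusted p = 0.000168).

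The RNA sensors of the endosome were also higher on average in the BALB/c tumours, with differences of unequal size. Tlr13 ran from 8.62 to 9.52 (median 9.37) in BALB/c and from 7.85 to 8.45 (median 8.17) in C57BL/6 tumours, without overlap, and differed by 1.05 ± 0.11, or 2.07-fold (adjusted p = 2.08e-06). Tlr8 read 9.19, 8.95 and 8.93 for 67NR, 8.25, 8.41 and 8.19 for 4T1.2, 7.70, 7.52 and 7.67 for EMT6.5, 7.47, 7.33 and 7.58 for EO771, and 7.22, 6.90 and 7.04 for EO771.LMB. Its BALB/c types formed 3 separate steps, the lowest of which overlapped EO771 only. The strain difference for Tlr8 was 1.05 ± 0.07, or 2.08-fold (adjusted p = 3.53e-08). Tlr7, its neighbour on the X chromosome, ran from 7.97 to 10.61 in BALB/c and from 8.34 to 8.94 in C57BL/6 tumours. The lowest value of all 15 was an EMT6.5 tumour, and the strain difference was 0.83 ± 0.16, or 1.78-fold (adjusted p = 0.000907). Tlr3, the receptor for double-stranded RNA that bypasses Myd88, differed least among these, by 0.27 ± 0.09, or 1.21-fold (adjusted p = 0.0237), and its ranges of 8.45 to 9.08 and 8.19 to 8.71 overlapped. The Tlr3 call was lost on centring each array on its median (0.20 on the log2 scale, adjusted p = 0.0852). It was also lost with 67NR and 4T1.2 alone for BALB/c. The 67NR mean of 8.52 lay below the 8.57 of EO771.LMB. EO771 minus 67NR was -0.11 ± 0.14 (adjusted p = 0.636) and EO771.LMB minus 67NR 0.05 ± 0.14 (adjusted p = 0.853). The higher Tlr3 in BALB/c thus rested on the 4T1.2 and EMT6.5 tumours.

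Tlr9, the sensor of CpG DNA, ran the other way. It read 8.06, 8.03 and 7.99 for EO771, above every other tumour, and between 7.11 and 7.77 elsewhere. The BALB/c minus C57BL/6 difference was -0.33 ± 0.10, or 1.25-fold lower (adjusted p = 0.0224), and EO771.LMB, with 7.77, 7.58 and 7.19, overlapped the BALB/c range of 7.11 to 7.75. Against single types, EO771 exceeded 4T1.2 by 0.70 ± 0.16 (adjusted p = 0.00408), EMT6.5 by 0.57 ± 0.16 (adjusted p = 0.0178) and 67NR by 0.47 ± 0.16 (adjusted p = 0.0407). The lower level in BALB/c tumours thus rested on the EO771 tumours, since EO771.LMB minus 67NR was -0.04 ± 0.16 (adjusted p = 0.903).

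Counted by gene, 7 of the 9 receptors were higher in the BALB/c tumours (19.3% of all clusters) and 2 were lower, Tlr9 and the brighter cluster of Tlr4 (18.9% of all clusters). Read by its dimmer cluster, Tlr4 was higher instead (0.77 ± 0.14, adjusted p = 0.000425). In either direction 38.3% of clusters were called. The median difference of the 9 genes was 0.83, beside 0.04 over all clusters tested. Of the 9, 2 (Tlr2 and Tlr13) had no overlap between the strains in the higher direction, against 5.07% of all clusters. Taking 67NR and 4T1.2 alone for BALB/c gave 8 calls, and leaving out EO771.LMB tumour 1 or 2 gave 6, with Tlr3, Tlr4 and Tlr9 lost.

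Markers of macrophages moved with the receptors. The mean signal of 15 macrophage markers ran from 9.77 to 9.98 in 67NR, 9.30 to 9.56 in 4T1.2, 8.79 to 9.02 in EMT6.5, 8.37 to 8.54 in EO771 and 8.18 to 8.29 in EO771.LMB tumours, the same order of types as for Tlr1, Tlr2, Tlr6, Tlr8 and Tlr13. Between the strains the 15 had a median difference of 0.65. In BALB/c 12 of them were higher and 0 lower, beside 19.3% and 18.9% of all clusters. The higher markers included the scavenger receptor Cd163 (2.99 ± 0.16, adjusted p = 1.64e-09), the Csf1 receptor Csf1r (2.30 ± 0.13, adjusted p = 2.75e-09) and the mannose receptor Mrc1 (1.79 ± 0.09, adjusted p = 6.74e-10). The mean of the 9 receptors fell from 9.18 to 9.35 in 67NR to 8.15 to 8.29 in EO771.LMB. Neutrophil markers had another order, with means of 6.47 to 6.77 in 4T1.2, 6.09 to 6.22 in EO771.LMB, 6.03 to 6.32 in EO771, 5.63 to 5.83 in 67NR and 5.54 to 5.597 in EMT6.5. Markers of plasmacytoid dendritic cells, which are rich in Tlr7 and Tlr9, spanned 5.36 to 5.83 over all tumours. Of these 7 markers 1 was called between the strains, beside 38.3% of all clusters. Means of 8 B cell markers ran from 6.02 to 7.23 in EO771, the type with the highest mean, as for Tlr9. They ran from 5.63 to 6.29 in EO771.LMB, 5.44 to 6.16 in 67NR and 5.25 to 6.76 in EMT6.5, all overlapping EO771. In 4T1.2 they ran from 5.19 to 5.60. Of the 8, 0 were higher and 2 lower in BALB/c, beside 19.3% and 18.9% of all clusters. Fibroblast markers were higher in BALB/c for 7 of 9 and lower for 1, beside the same 19.3% and 18.9% of all clusters. Means of epithelial markers ran from 6.19 to 7.11. The scale has no zero and no detection values, so no marker could be called absent. The part of these cell types in the receptor differences was not tested.

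**Figure D2:**
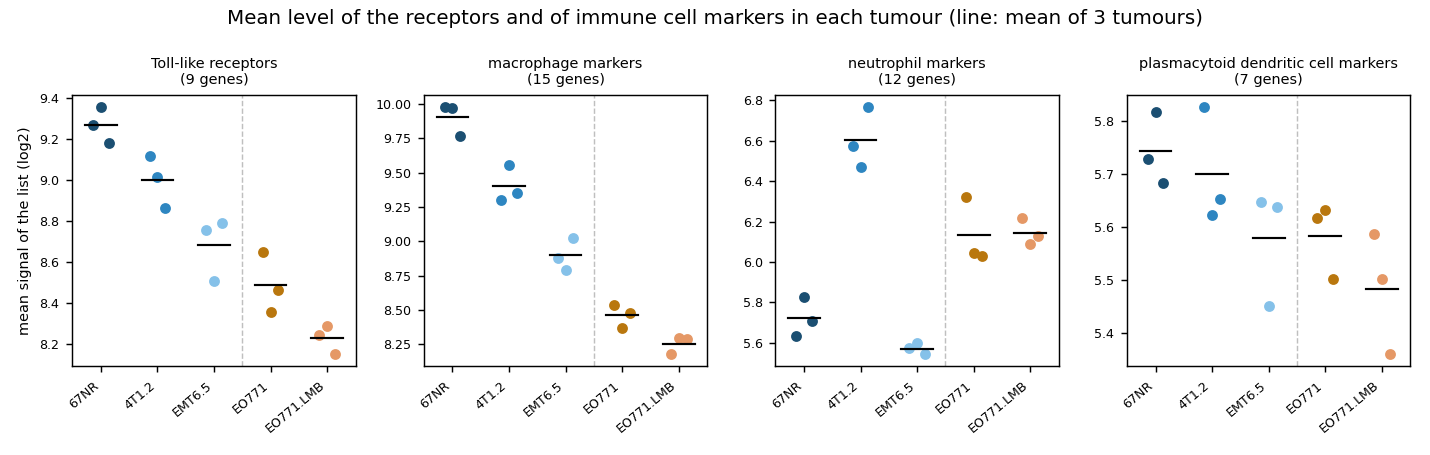
Mean log2 signal over the 9 receptors (Tlr4 by its brighter cluster), 15 macrophage markers, 12 neutrophil markers and 7 plasmacytoid dendritic cell markers, with a dot per tumour and a line at the mean of 3 tumours of a type. The receptor and macrophage means descend in the same order of types, from 67NR to EO771.LMB, whereas neutrophil markers peak in 4T1.2.

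Tlr4 gave different readings by cluster. The cluster annotated to the RefSeq transcript of the gene, the dimmer one, read 8.83, 9.17 and 9.09 for 67NR, 7.96, 8.64 and 8.51 for 4T1.2, 8.01, 8.11 and 8.71 for EMT6.5, 7.69, 7.95 and 7.49 for EO771, and 7.86, 7.61 and 8.15 for EO771.LMB. All 67NR tumours lay above all others. The brighter cluster, annotated to an Ensembl transcript, read 11.98, 12.12 and 12.01 for 67NR, 11.75, 11.80 and 11.74 for 4T1.2, 12.20, 12.34 and 12.23 for EMT6.5, 12.29, 12.22 and 12.14 for EO771, and 12.11, 12.14 and 12.09 for EO771.LMB. Here 4T1.2 lay below every other tumour, and all 15 values fell within a narrow span. Between the strains the dimmer cluster was higher in BALB/c by 0.77 ± 0.14, or 1.70-fold (adjusted p = 0.000425), while the brighter was lower by a difference of -0.15 ± 0.05, or 1.11-fold (adjusted p = 0.0451). The mean of both was 0.31 higher (adjusted p = 0.00808), so the direction for Tlr4 between strains was not settled by these probes. The call of the brighter cluster was also lost without 1 of 12 different tumours. In EO771 minus 4T1.2 the brighter cluster was higher (0.46 ± 0.08, adjusted p = 0.000759) and the dimmer lower (-0.67 ± 0.22, adjusted p = 0.0304). In the 4T1.2 minus 67NR comparison both clusters were lower, by -0.28 ± 0.08 and -0.66 ± 0.22 on the log2 scale.

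Within the 4T1 lineage, which contrasts a metastatic with a non-metastatic line, 2 of 9 receptors were lower in the metastatic 4T1.2 tumours and 0 were higher than in 67NR. Of all clusters 17.8% were called, 9.12% being lower and 8.69% higher. Tlr8 fell by 0.74 ± 0.12 on the log2 scale, or 1.67-fold (adjusted p = 0.000376), with every 4T1.2 tumour below every 67NR tumour, and kept its call under all 25 alternatives. Tlr4 was lower by 1.21-fold in its brighter cluster (adjusted p = 0.035) and by 1.58-fold in its dimmer one (adjusted p = 0.0493). Without any 1 of the 67NR or 4T1.2 tumours, or with only those tumours in the fit, the Tlr4 call was lost and the count fell to 1, and without EMT6.5 tumour 2, which enters only through the shared variance, it was 4, with Tlr7 lower and Tlr3 higher in addition. Tlr7, at 9.76, 10.61 and 10.08 for 67NR and 9.82, 9.28 and 9.35 for 4T1.2, differed by -0.67 ± 0.25 (adjusted p = 0.092). Tlr3 was the member with a positive difference, of 0.39 ± 0.14 (adjusted p = 0.0655), and its tumours did not overlap (8.45, 8.59 and 8.51 against 8.89, 8.99 and 8.83). Tlr3 was called higher in 6 of 25 alternatives. These included quantile normalisation, only clusters above the median signal, only clusters with a symbol, and leaving out EMT6.5 tumour 3. The differences of Tlr1, Tlr2, Tlr6, Tlr9 and Tlr13 lay between -0.32 and -0.13 (adjusted p from 0.211 to 0.679). The 95% interval for Tlr2 was -0.60 to 0.16 and that for Tlr1 -0.90 to 0.43, so differences of these sizes could not be told from none with 3 tumours a type. The median receptor difference was -0.23, beside 0.05 over all clusters. Of the 15 macrophage markers 6 were lower and 0 higher in 4T1.2, with a median of -0.36, among them the complement component C1qc (-1.27 ± 0.34, adjusted p = 0.0172), Cd163 (-1.19 ± 0.25, adjusted p = 0.00356) and Csf1r (-0.73 ± 0.20, adjusted p = 0.0197).

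In the EO771 pair 0 of 9 receptors were called, where 0.0197% of all clusters were (7 clusters). At an unadjusted p under 0.05, limma called 3 (8.3% of all clusters), and the one-way analysis of variance with Benjamini-Hochberg adjustment called 0. The 3 were Tlr8, at 7.47, 7.33 and 7.58 for EO771 and 7.22, 6.90 and 7.04 for EO771.LMB (-0.41 ± 0.12, adjusted p = 0.316), Tlr9 (-0.51 ± 0.16, adjusted p = 0.38) and Tlr2 (-0.45 ± 0.18, adjusted p = 0.51). Every EO771.LMB tumour lay below every EO771 tumour for 4 receptors, Tlr4 by its brighter cluster, Tlr7, Tlr8 and Tlr9, as in 6.89% of all clusters. The tumours overlapped for Tlr2, which read 8.09, 7.41 and 7.88 against 7.30, 7.18 and 7.54. Tlr1 varied most within types, with an SD of 0.58 in EO771 and 0.67 in EO771.LMB, and its interval of -1.25 to 0.08 left room for a difference larger than 1. Intervals were narrower for Tlr13 (-0.39 to 0.33) and Tlr6 (-0.37 to 0.32). Macrophage markers gave 0 calls of 15, with a median of -0.27.

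Whether the metastatic line differed from its partner alike in both pairs was tested by the interaction, and 0 of 9 receptors were called, beside 10.2% of all clusters. At an unadjusted p under 0.05 the count was 0 (22% of all clusters), and 0 by the analysis of variance with adjustment. These counts read Tlr4 by its brighter cluster. The dimmer Tlr4 cluster had the largest interaction, of -0.82 ± 0.30 (limma unadjusted p = 0.0175, adjusted p = 0.116), followed by Tlr1 at 0.35 ± 0.44 (adjusted p = 0.732) and Tlr8 at -0.33 ± 0.16 (adjusted p = 0.26). Tlr8 was below its partner in the metastatic line of both pairs, but only the 4T1 lineage passed the test, and the difference between the pairs was not established.

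**Figure D3:**
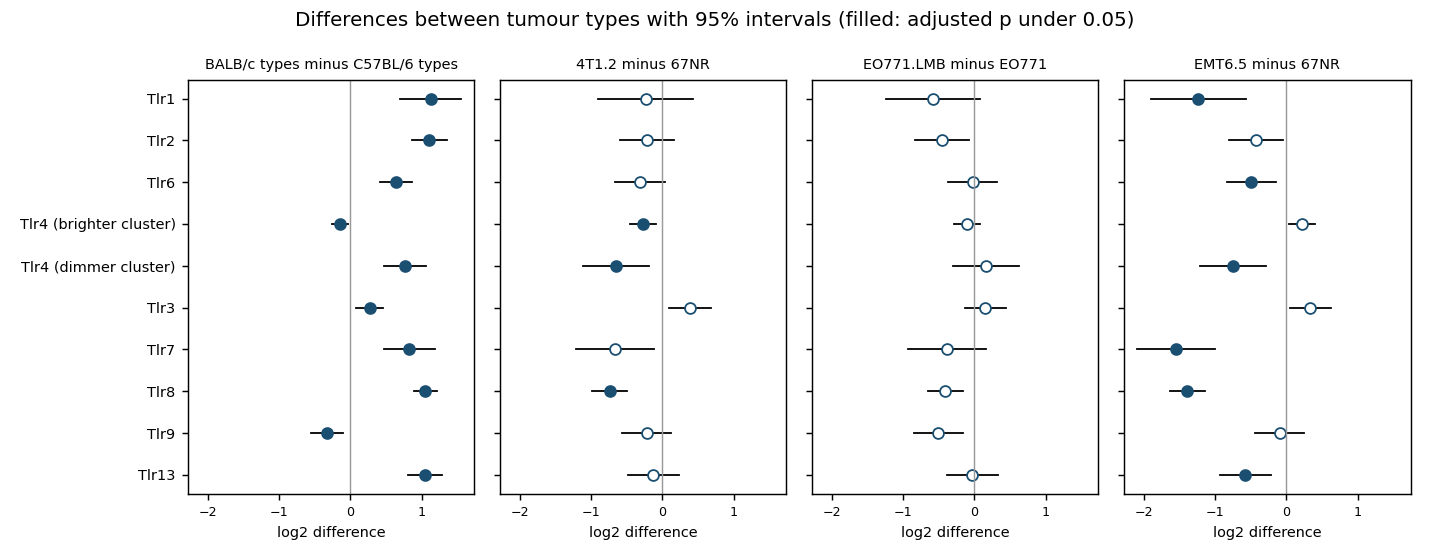
Log2 difference of each member cluster (dot) with its 95% interval (line) in 4 comparisons, filled where the limma adjusted p was under 0.05. Most receptors lie to the right in the strain comparison, Tlr8 and both Tlr4 clusters are the filled dots in 4T1.2 minus 67NR, and no dot is filled in EO771.LMB minus EO771.

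EMT6.5, the other metastatic line in BALB/c mice, stood lower than 67NR for 5 of 9 receptors (18% of all clusters called, 8.37% being lower and 9.59% higher) and higher for 0. Tlr7 read 8.81, 7.97 and 9.01 for EMT6.5, with the lowest tumour well apart from the other two, and the difference was -1.55 ± 0.25, or 2.93-fold (adjusted p = 0.000559). Tlr8 differed by -1.40 ± 0.12, or 2.63-fold (adjusted p = 8.16e-07), and Tlr1 by -1.24 ± 0.31, or 2.36-fold (adjusted p = 0.0119). Tlr13 (-0.58 ± 0.17, adjusted p = 0.0279) and Tlr6 (-0.49 ± 0.16, adjusted p = 0.0492) passed more narrowly. The Tlr6 call was lost in 13 of 25 alternatives, that of Tlr13 in 4 and that of Tlr1 in 2. The tumours of the 2 types did not overlap for any of these 5 genes, as in 15.6% of all clusters in that direction. Without 67NR tumour 1 or 67NR tumour 2 the count fell to 3, all lower. Without EMT6.5 tumour 2, 2 were lower (Tlr7 and Tlr8) and Tlr3 was called higher. Tlr7 and Tlr8 kept their calls in all 25 alternatives. Tlr4, counted by its brighter cluster, did not pass (0.22 ± 0.08, adjusted p = 0.0987), while its dimmer cluster was lower (-0.75 ± 0.22, adjusted p = 0.0248). The brighter cluster was called higher by the analysis of variance, with an intensity trend and robust prior, and at an unadjusted p. The mean of both clusters was -0.27 (adjusted p = 0.186), so the direction for Tlr4 was not settled. Here 12 of 15 macrophage markers were lower and 0 higher, with a median of -1.09, Cd163 (-2.59 ± 0.25, adjusted p = 3.46e-06) and the phagocytic receptor Mertk (-1.74 ± 0.11, adjusted p = 3.85e-08) among them. Against 4T1.2, EMT6.5 was lower for 3 receptors and higher for 1 (16.3% of all clusters called, 7.4% being lower and 8.94% higher). Tlr1 differed by -1.005 ± 0.31 (adjusted p = 0.0398), Tlr7 by -0.89 ± 0.25 (adjusted p = 0.0278) and Tlr8 by -0.65 ± 0.12 (adjusted p = 0.00116), while the brighter Tlr4 cluster was 0.49 ± 0.08 higher (adjusted p = 0.000865). The dimmer Tlr4 cluster had the other sign, -0.10 ± 0.22 (adjusted p = 0.818), and the mean of both was 0.20 (adjusted p = 0.36), so the direction for Tlr4 was not settled here either. Read by the dimmer cluster, 3 receptors were lower and 0 higher. Without 4T1.2 tumour 1 or EMT6.5 tumour 2 the count was 2, 1 in each direction. These comparisons share the EMT6.5, 67NR and 4T1.2 tumours with those above and are not independent of them.

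Compared with the C57BL/6 types, EMT6.5 passed the test for Tlr2 and Tlr13 in both comparisons and for Tlr1, Tlr6 and Tlr7 in neither. Tlr3 was higher in EMT6.5 than in EO771 (EO771 minus EMT6.5, -0.44 ± 0.14, adjusted p = 0.0278), and its difference from EO771.LMB was -0.29 ± 0.14 (adjusted p = 0.149). Of all clusters 23.7% were called against EO771 and 24.3% against EO771.LMB. Tlr2 was higher in EMT6.5 than in EO771 (EO771 minus EMT6.5, -0.67 ± 0.18, adjusted p = 0.0126) and EO771.LMB (-1.12 ± 0.18, adjusted p = 0.000251). Tlr13 was likewise higher than in EO771 (-0.69 ± 0.17, adjusted p = 0.00729) and EO771.LMB (-0.72 ± 0.17, adjusted p = 0.00522). For Tlr7 the same differences were 0.17 ± 0.25 (adjusted p = 0.708) and -0.21 ± 0.25 (adjusted p = 0.638), and for Tlr1 -0.09 ± 0.31 (adjusted p = 0.884) and -0.67 ± 0.31 (adjusted p = 0.142). Tlr8 in EMT6.5 exceeded EO771.LMB (-0.58 ± 0.12, adjusted p = 0.00182), whereas its difference from EO771 was -0.17 ± 0.12 (adjusted p = 0.367). For Tlr2 and Tlr13, 67NR and 4T1.2 were neighbours that did not pass the test (adjusted p = 0.459 and 0.678), nor did 4T1.2 and EMT6.5 (adjusted p = 0.493 and 0.09).

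The proteins that serve the receptors were read from 6 lists. A list of 12 held 10 co-receptors and accessory proteins together with the receptors Tlr11 and Tlr12. In BALB/c tumours 7 of the 12 were higher and 1 lower (median 0.31), and of the 10 without the receptors 6 and 1 (median 0.55), beside 19.3% of all clusters higher and 18.9% lower. Tlr11, a sensor of profilin from apicomplexan parasites, read between 4.65 and 5.73 over the 15 tumours and was 0.43 ± 0.10 higher in BALB/c (adjusted p = 0.00425), and Tlr12, its partner in that role, read between 5.34 and 5.95 and differed by 0.04 ± 0.08 (adjusted p = 0.714). Cd14, which hands lipopolysaccharide to Tlr4, read 9.01, 9.50 and 9.15 for 67NR, 9.49, 8.90 and 9.23 for 4T1.2, 8.57, 8.998 and 9.09 for EMT6.5, 8.04, 6.49 and 7.78 for EO771, and 7.05, 7.32 and 7.43 for EO771.LMB. Every BALB/c tumour lay above every C57BL/6 tumour, by 1.75 ± 0.20 on average, or 3.37-fold (adjusted p = 5.95e-06). Larger differences were seen for Lbp, the lipopolysaccharide-binding protein (3.95 ± 0.12, adjusted p = 5.3e-12), and Ly86, the partner of the TLR-related protein Cd180 (1.84 ± 0.09, adjusted p = 1.1e-09). The scavenger receptor Cd36, which assists Tlr2, was 1.03 ± 0.21 higher (adjusted p = 0.00136). Ly96, without which Tlr4 does not bind lipopolysaccharide, differed by -0.38 ± 0.18 (adjusted p = 0.114). In 4T1.2 minus 67NR, 3 of the 12 were lower and 0 higher (9.12% and 8.69% of all clusters), namely Lbp (-2.04 ± 0.19, adjusted p = 2.96e-06), Cd36 (-1.24 ± 0.33, adjusted p = 0.0176) and Unc93b1, the chaperone that carries endosomal TLRs from the endoplasmic reticulum (-0.49 ± 0.13, adjusted p = 0.0155). Cd14 differed there by -0.02 ± 0.31 (adjusted p = 0.982) and Ly96 by -0.18 ± 0.28 (adjusted p = 0.734). In the EO771 pair the values were -0.17 ± 0.31 for Cd14 (adjusted p = 0.946) and -0.13 ± 0.28 for Ly96 (adjusted p = 0.96). Cd36 was not called in that pair either. It read 9.20 to 9.79 in EO771 and 7.43 to 8.90 in EO771.LMB, lower without overlap, as in 6.89% of all clusters. The paper reported lower Cd36 in whole metastatic tumours of both models.

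Of 17 adaptors and proximal kinases, 4 were higher and 5 lower in BALB/c, where 19.3% and 18.9% of all clusters were. Their median was 0.02, beside 0.04 over all clusters. No test of a list as a set was run. Myd88, the common adaptor, was 0.36 lower (-0.36 ± 0.11, adjusted p = 0.0172), and so was Tirap, which bridges Tlr2 and Tlr4 to Myd88 (-1.22 ± 0.14, adjusted p = 6.13e-06), while Ticam2, the bridge from Tlr4 to the adaptor of the interferon arm, was higher (1.00 ± 0.11, adjusted p = 5.71e-06). In 4T1.2 minus 67NR, Ticam2 was lower (-0.97 ± 0.18, adjusted p = 0.00128), the ubiquitin ligase Traf3 higher (0.66 ± 0.12, adjusted p = 0.000961) and Myd88 differed by -0.12 ± 0.17 (adjusted p = 0.698). Myd88 differed by -0.20 ± 0.17 in the EO771 pair (adjusted p = 0.847). The 13 transcription factors and IKK subunits gave 2 higher and 4 lower in BALB/c, beside the same 19.3% and 18.9% of all clusters. Lower ones included Irf7, which drives type I interferon after Tlr7 and Tlr9 (-1.52 ± 0.08, adjusted p = 8.67e-10), and the NF-κB subunit Rela (-0.60 ± 0.06, adjusted p = 3.15e-06). In 4T1.2 minus 67NR there were 2 higher and 4 lower, beside 8.69% and 9.12% of all clusters. Among the lower were the IKK kinase Chuk (-1.04 ± 0.09, adjusted p = 1.72e-06) and Nfkb2 (-1.02 ± 0.13, adjusted p = 6.48e-05). Of 14 negative regulators, 3 were higher and 3 lower in BALB/c, again beside 19.3% and 18.9% of all clusters. In 4T1.2 minus 67NR 2 of them were higher and 4 lower, beside 8.69% and 9.12% of all clusters. The widest difference of these regulators was in Il1rl1, the receptor also called ST2, at -4.63 ± 0.19 in 4T1.2 minus 67NR (adjusted p = 3.02e-10).

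Of 12 ligands of host origin, 3 were higher in 4T1.2 than in 67NR and 0 lower, beside 8.69% and 9.12% of all clusters. S100a8, which with S100a9 forms a calcium-binding complex that Tlr4 recognises, read 5.42, 6.58 and 5.62 for 67NR and 7.96, 7.63 and 8.12 for 4T1.2, and its partner S100a9 read 6.53, 7.14 and 6.68 against 8.57, 8.46 and 8.87. Neither overlapped. The differences were 2.03 ± 0.25, or 4.08-fold (adjusted p = 3.87e-05), and 1.85 ± 0.25, or 3.61-fold (adjusted p = 9.39e-05), and the third was the matrix protein tenascin C, Tnc (2.23 ± 0.21, adjusted p = 3.44e-06). In EO771.LMB minus EO771, S100a8 differed by 0.87 ± 0.25 without overlap (adjusted p = 0.317) and S100a9 by 0.18 ± 0.25 (adjusted p = 0.921). Both genes are also neutrophil markers, of which 6 of 12 were higher in 4T1.2 than in 67NR and 0 lower, Retnlg (2.41 ± 0.22, adjusted p = 2.42e-06) and Mmp9 (1.64 ± 0.21, adjusted p = 7.19e-05) among them. The part of neutrophils in the ligand difference was not tested here. By qRT-PCR on pooled RNA of tumour cells sorted from primary tumours, the paper found both genes higher in the metastatic line of each pair. It also held a contribution of stromal cells to be likely, above all for these genes. In the strain comparison 6 ligands were higher and 3 lower in BALB/c, beside 19.3% and 18.9% of all clusters. The higher ligands were led by fibronectin, Fn1 (3.53 ± 0.09, adjusted p = 8.59e-13), and biglycan, Bgn (2.05 ± 0.11, adjusted p = 1.53e-09).

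**Figure D4:**
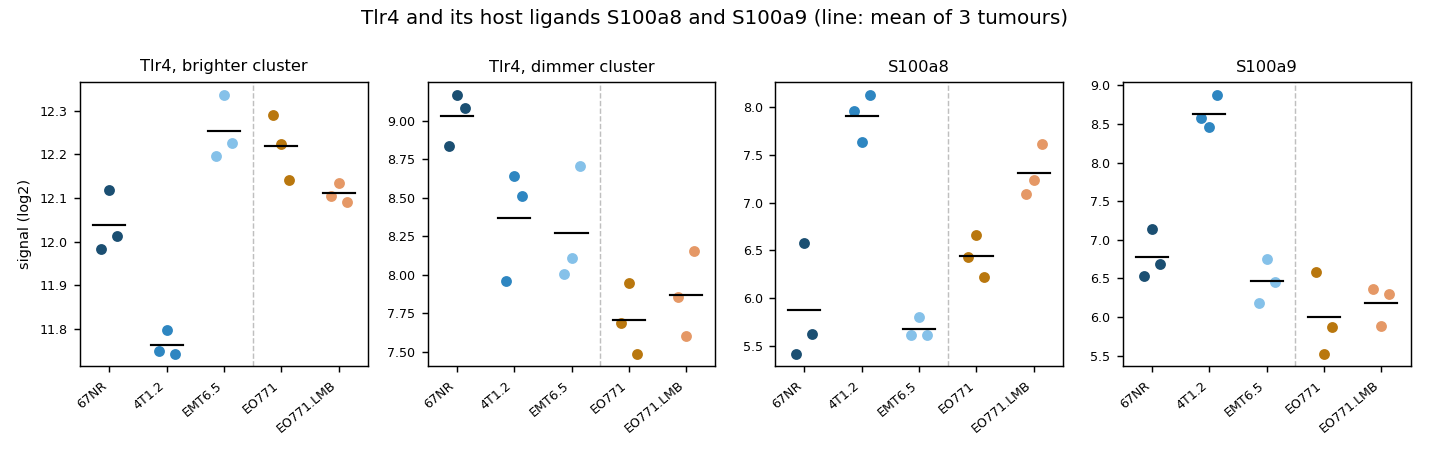
Log2 signal of both Tlr4 clusters and of the ligands S100a8 and S100a9 in each tumour, with a dot per tumour and a line at the mean of 3 tumours of a type. The 4T1.2 tumours have the highest S100a8 and S100a9 and the lowest brighter Tlr4 cluster, whereas the dimmer Tlr4 cluster is highest in 67NR.

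Of 24 genes induced by TLR signalling in macrophages, 9 were higher and 0 lower in 4T1.2 than in 67NR (8.69% and 9.12% of all clusters; median 0.41), among them the siderophore-binding lipocalin Lcn2 (3.60 ± 0.34, or 12.1-fold, adjusted p = 2.96e-06), the interleukins Il1a (2.46 ± 0.31, adjusted p = 5.43e-05) and Il23a (2.43 ± 0.16, adjusted p = 6.43e-08) and the neutrophil chemokine Cxcl2 (1.54 ± 0.29, adjusted p = 0.00186). Between the strains 4 of the 24 were higher and 10 lower in BALB/c, beside 19.3% and 18.9% of all clusters (median of the 24 genes -0.23). Ptgs2, the inducible cyclooxygenase, was higher (3.21 ± 0.13, adjusted p = 6.3e-11), as was Lcn2 (1.78 ± 0.22, adjusted p = 1.15e-05), and the chemokines Cxcl10 (-2.35 ± 0.16, adjusted p = 1.59e-08) and Ccl2 (-2.20 ± 0.14, adjusted p = 7.93e-09) were lower. In the EO771 pair 0 genes of the 6 lists were called, beside 0.0197% of all clusters. At an unadjusted limma p under 0.05, 8.3% of all clusters were called. The lists then gave 3 of 12 in the co-receptor list, 3 of 17 adaptors and 0 of 13 transcription factors. They also gave 2 of 14 negative regulators, 1 of 12 ligands and 7 of 24 targets.

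For each receptor whose type means spanned at least 1 on the log2 scale, the genes most alike over the 15 tumours were found by the root mean square difference of values centred on each gene's mean, among 22007 other genes. Nearest to Tlr7 was Fcgr2b, the inhibitory Fc receptor (0.25), followed by Smpdl3a (0.31) and the leukocyte surface protein Cd48 (0.31). Tlr8 was closest to Ttll7 (0.19), the chemerin receptor Cmklr1 (0.19) and the NADPH oxidase Nox4 (0.20), and Tlr13 to a gene listed only by the Entrez number 667277 (0.17), the transcription factor Lmo2 (0.18) and the deubiquitinase Usp2 (0.19). Tlr2 lay nearest to Aim1 (0.19), the lysosomal membrane protein Laptm5 (0.20) and the amino acid transporter Slc7a8 (0.20), and Tlr1 to the potassium channel Kcnk6 (0.25), Atp8a1 (0.30) and Rnf130 (0.33). The dimmer Tlr4 cluster was nearest to Prmt2 (0.19), Sft2d2 (0.20) and Tulp4 (0.22). These points share their arrays, and the likeness is a description.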

How the data were processed

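Whole primary tumours of 5 types, 3 per type, were profiled on Affymetrix Mouse Gene 1.0 ST arrays. The authors deposited log2 signals after background adjustment, quantile normalisation and summarisation. The study's methods give GCRMA as the algorithm, whereas Partek 6.6 and RMA appear in the processing notes of the submitters, so which was used is not settled. The table of the series and a workbook sheet held the same values (0 of 533340 differed). Not used were 30 value columns of other workbook sheets. The genome build was not given in the sources used here.

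Receptors were found by gene symbol. A gene with several clusters was represented by the one of highest mean signal, which for Tlr4 is the brighter of 2. limma 3.58.1 (R 4.3.3) was fitted to all 35556 clusters and 15 tumours with type alone in the model, and p-values were adjusted by Benjamini-Hochberg over all clusters at a threshold of 0.05. Values after ± are SD or, for differences, standard errors of that fit, and intervals are 95% intervals from it. The fit was tested on simulated data. Alternatives were median centring, quantile normalisation, a filter on dim or unnamed clusters, only the types compared, an analysis of variance, an intensity trend with a robust prior, a block by tumour number, unadjusted p-values, the other Tlr4 cluster or the mean of both, and leaving out each tumour. Tumour numbers did not pair samples (correlations of deviations from -0.168 to 0.149 over 30 same-numbered pairs). Receptors and gene lists were chosen with earlier results of these data known. The 15 lists hold 180 genes, all measured, 9 of them under older symbols. All 9 receptors were named, and of each list up to 4 called genes with the widest differences, beside S100a8, S100a9, Cd14, Ly96 and Myd88. Tlr11 and Tlr12, which lie in the co-receptor list, were named after their values were seen. p-values measure the spread between tumours of 1 line.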

Additional observations from a re-analysis of the deposited data

Results flagged for a closer look

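No receptor differed between the 2 isogenic pairs by the interaction test, the change in 4T1.2 minus 67NR less that in EO771.LMB minus EO771, but 18 of 34 other genes named above did, by limma adjusted p under 0.05 (10.2% of all clusters). These genes were named for their wide differences, many of them in 4T1.2 minus 67NR, so the count is not evidence about the lists. They are given here as values on the log2 scale. Of the ligands, S100a9 had an interaction of 1.67 (adjusted p = 0.00628), Tnc of 2.39 and S100a8 of 1.16 (adjusted p = 0.0497). The S100a8 interaction passed narrowly and did not pass in 17 of 25 alternatives. Target genes were Lcn2 (4.52), Il1a (2.85), Il23a (2.18), Ptgs2 (1.87) and Cxcl10 (1.32). Among proteins serving the receptors, Lbp had an interaction of -1.80, Ly86 of 0.93, Ticam2 of -1.06, Traf3 of 0.77, Chuk of -1.12, Nfkb2 of -1.18, Irf7 of 0.74 and Il1rl1 of -4.94. The neutrophil genes Retnlg (1.96) and Mmp9 (1.68) were the others.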

How the results depend on the processing

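Across the 5 types the number of receptors called stayed between 7 and 9 on leaving out 1 tumour. In 4T1.2 minus 67NR the count of 2 became 1 with only the types compared in the fit, 4 at an unadjusted p under 0.05, and ran from 1 to 4 on leaving out 1 tumour. In EO771.LMB minus EO771 the count of 0 became 3 at an unadjusted p. In EMT6.5 minus 67NR the count of 5 became 8 at an unadjusted p and ran from 3 to 5 on leaving out 1 tumour, and in EMT6.5 minus 4T1.2 the count of 4 became 2 by the analysis of variance and ran from 2 to 4. The cause was not tested. Fewer tumours entered each leave-one-out fit.

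With tumour number as a replicate block, the counts of receptors called were 9 across the types, 2 in 4T1.2 minus 67NR, 0 in EO771.LMB minus EO771, 0 for the interaction, 8 between the strains, 4 in EMT6.5 minus 67NR and 4 in EMT6.5 minus 4T1.2. The numbers do not pair the tumours.

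Directions of called differences turned for Tlr4, between strains with the dimmer cluster (0.77) or the mean of both, and in EMT6.5 minus 4T1.2 with the dimmer (-0.10). Called differences of the brighter cluster also turned with the dimmer in EO771 minus 4T1.2 (0.46 to -0.67) and in EO771.LMB minus 4T1.2 (0.35 to -0.50). The other turns were of differences that had not passed the test as reported, which for Tlr4 is by the brighter cluster. Among these, EMT6.5 minus 67NR was 0.22 by the brighter cluster, not called, and -0.75 by the dimmer, called lower. With the mean of both clusters, Tlr4 gave 0.311 between strains, 0.0282 in EO771.LMB minus EO771 and -0.27 in EMT6.5 minus 67NR. On leaving out 1 tumour, Tlr13 ran from -0.215 to 0.0294 in 4T1.2 minus 67NR, from -0.195 to 0.106 in EO771.LMB minus EO771 and from -0.234 to 0.0676 for the interaction. Tlr6 ran from -0.172 to 0.0936 in EO771.LMB minus EO771 and Tlr9 from -0.207 to 0.0005 in EMT6.5 minus 67NR. In EMT6.5 minus 4T1.2 the dimmer Tlr4 cluster ran from -0.315 to 0.0367 and Tlr3 from -0.164 to 0.0801. The value of Cd14, 4T1.2 minus 67NR, was 0.0182 with quantile normalization and ran from -0.156 to 0.139 on leaving out 1 tumour, and Myd88 ran from -0.268 to 0.0356. In EO771.LMB minus EO771, Cd14 ran from -0.645 to 0.13, Ly96 from -0.494 to 0.195 and S100a9 from -0.0542 to 0.477. S100a8 gave 0.0146 between strains with 67NR and 4T1.2 alone for BALB/c. Alternatives for Tlr4 by its dimmer cluster and for the gene lists were chosen after seeing the data. Among the lists in 4T1.2 minus 67NR, calls ran from 1 to 4 for co-receptors (3 as reported), 2 to 4 for adaptors (2), 2 to 6 for negative regulators (6) and 3 to 6 for neutrophil markers (6). With 3 tumours a type and no detection values, precision is limited by the number of arrays.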
